A study of Homo sapiens with 18 samples.

Results

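Stable knockdown (KD) lines of S100A16 and of MagoHB were compared with each other in A549, an established line of human lung adenocarcinoma cells. The comparison rests on 6 poly(A) mRNA libraries, 3 of the untreated S100A16 KD and 3 of the untreated MagoHB KD, chosen by their labels out of 18 libraries in the series. The series also holds wild-type cells, a hnRNPM KD and libraries given hydrogen peroxide, and its title names S100A16, alternative splicing and oxidative stress. No wild-type library enters here, so for every difference below it cannot be told apart whether the S100A16 KD, the MagoHB KD or both had moved. The knockdown method, any vector carried by the lines and whether a line is 1 clone were not given in the sources used here. Labels call the libraries of a group biological replicates without saying whether they came from separate cultures, so p-values measure the spread between these libraries, which may be technical.

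S100A16 belongs to the S100 family of small EF-hand calcium-binding proteins, which act inside cells by binding target proteins when calcium rises. MAGOHB and its near-identical copy MAGOH each pair with RBM8A (Y14), and the pair locks the helicase EIF4A3 onto spliced RNA as the core of the exon junction complex. That complex is left just upstream of exon junctions and takes part in splicing, RNA export, translation and nonsense-mediated decay, which removes mRNAs with early stop codons.

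The libraries held 39523692, 45245521 and 43372955 counts in the S100A16 KD, against 41139464, 51406431 and 45949586 counts in the MagoHB KD. One library of each line stood apart from its replicates. Counts of S100A16 KD 2 and 3 differed by a chi-square of 4.13 per degree of freedom, while S100A16 KD 1 differed from them by 30.0 and 31.2. MagoHB KD 1 and 3 differed by 5.39, and MagoHB KD 2 differed from them by 64.9 and 45.6. Pairs across the lines differed by 169 to 204. S100A16 KD 1 held 1317 CPM (counts scaled to library size by TMM) in features of short structured RNAs, against 288 and 294 CPM in its replicates and 301 to 343 CPM in the MagoHB KD libraries. Counts of genes below were also taken without S100A16 KD 1 and MagoHB KD 2 (without both libraries, below) and without each library in turn. As the handling of strand is unknown, levels of genes that overlap another gene are uncertain. This also holds for genes not marked one by one below. Among them are FTH1, GAPDH and UQCRB, with features on the opposite strand, and TAP2 and KIAA0101, with features on the same strand. All 6 libraries carried high levels of the epithelial keratin KRT8, at 3234 CPM or more, and of the aldehyde dehydrogenase ALDH1A1, at 2980.0 CPM or more. Other epithelial markers ranged widely, with KRT18, KRT7 and CDH1 at 35.2 CPM or more and MUC1 between 5.49 and 9.20 CPM. EPCAM lay between 2.23 and 6.02 CPM, and KRT19 between 0.611 and 1.07 CPM. Of 8 lung lineage genes, NKX2-1, SFTPA1, SFTPB and SFTPC lay between 0 and 0.218 CPM in each library. NAPSA, FOXA1 and GATA6 lay between 0.430 and 3.46 CPM, and FOXA2 between 19.6 and 31.5 CPM. The 5 leukocyte markers summed to 1.08 to 1.38 CPM in the S100A16 KD, against 0.472 to 0.658 CPM in the MagoHB KD. The 3 endothelial markers summed to 0.699 to 0.949 CPM in the S100A16 KD, against 0.253 to 0.604 CPM in the MagoHB KD. The 6 fibroblast markers summed to 51.3 to 59.9 CPM in the S100A16 KD, against 49.3 to 79.7 CPM in the MagoHB KD, mostly from COL1A1, PDGFRA and COL3A1. In such bulk libraries, fewer cells of a type and less RNA per cell cannot be told apart.

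Each targeted mRNA was lower in its own line. S100A16 (GRCh38, chromosome 1, 153606886 to 153613145) had 9.63, 9.0 and 8.39 CPM in the S100A16 KD, against 55.6, 78.3 and 60.3 CPM in the MagoHB KD. The groups did not overlap, and the S100A16 KD stood 7.19-fold lower (log2 fold change -2.85 ± 0.14 (SE), adjusted p = 4.03e-06, by edgeR's quasi-likelihood test with Benjamini-Hochberg adjustment, as for every adjusted p below). MAGOHB (chromosome 12, 10604190 to 10613623) had 104, 107 and 101 CPM in the S100A16 KD, against 65.7, 40.3 and 61.1 CPM in the MagoHB KD, again without overlap and with MagoHB KD 2 the lowest (log2 fold change 0.90 ± 0.17 (SE), adjusted p = 0.00429). Its copy MAGOH (chromosome 1, 53226892 to 53238610) lay in the other direction, at 35.8, 34.6 and 34.3 CPM in the S100A16 KD, against 54.3, 44.3 and 53.2 CPM in the MagoHB KD (log2 fold change -0.54 ± 0.09 (SE), adjusted p = 0.00169). Reads of the copies may be shared between them, so both values are uncertain.

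Partners of the MAGO proteins were lower in the S100A16 KD or could not be separated. RBM8A had 170.1, 159 and 159.9 CPM in the S100A16 KD, against 246, 208 and 245 CPM in the MagoHB KD (log2 fold change -0.52 ± 0.08 (SE), adjusted p = 0.00127). It overlaps features on the opposite strand and the use of strand in counting is not given, so its level is uncertain. EIF4A3 did not pass the test with all libraries, at -0.15 (adjusted p = 0.335), but was called at -0.30 without MagoHB KD 2 and S100A16 KD 1. HNRNPM, a splicing regulator targeted elsewhere in the series, had 1312, 1256 and 1250.0 CPM in the S100A16 KD, against 1707, 1224 and 1623 CPM in the MagoHB KD. Its log2 fold change was -0.25 (adjusted p = 0.118), and it was called at -0.42 without both libraries. For both genes MagoHB KD 2 lay below its replicates and among or below the S100A16 KD libraries, and the part of that library in the difference was not tested beyond leaving it out.

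**Figure D1:**
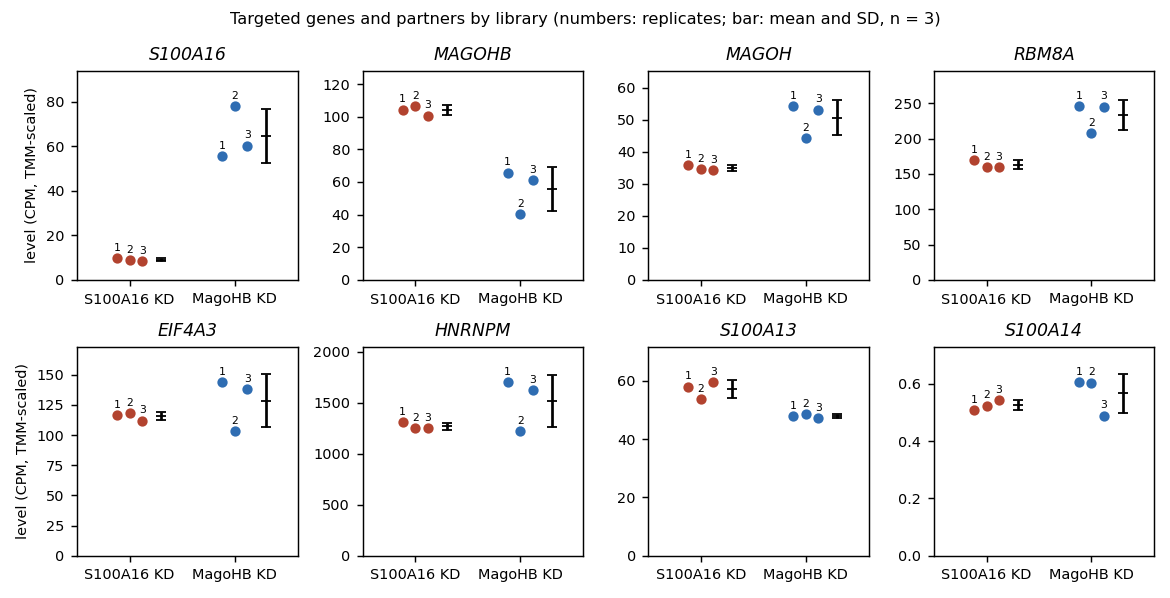
Levels of the targeted genes, their partners and the neighbours of S100A16 in each library (CPM, TMM-scaled, axes from 0); numbers mark the replicate, bars the mean and SD. S100A16 was 9.0 ± 0.621 CPM in the S100A16 KD and 64.7 ± 12 CPM in the MagoHB KD, and MagoHB KD 2 lies apart from its replicates in most panels.

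The neighbours of S100A16 on chromosome 1 differed less. S100A14 was near the floor at 0.508 to 0.542 CPM in the S100A16 KD, against 0.489 to 0.608 CPM in the MagoHB KD (log2 fold change -0.11, adjusted p = 0.771). S100A13 had 58, 53.8 and 59.7 CPM in the S100A16 KD, against 47.9, 48.5 and 47.3 CPM in the MagoHB KD (log2 fold change 0.26, adjusted p = 0.0151). Its call was lost without MagoHB KD 3 (adjusted p = 0.0676), S100A16 KD 1 (adjusted p = 0.0644) or S100A16 KD 3 (adjusted p = 0.0749), and the gene overlaps S100A1.

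Across the S100 family, 12 of 17 matched members passed the count filter, 3 were higher and 5 lower in the S100A16 KD. The lower ones include the target S100A16 itself. Of all genes tested, 21.1% were higher and 18.8% lower. Per exon length, S100A6 was the most abundant in both lines, at 489 RPKM in the S100A16 KD and 669 RPKM in the MagoHB KD. S100A10, the partner of annexin A2, followed at 181 RPKM in the S100A16 KD and 284 RPKM in the MagoHB KD. S100A11 came next at 146 RPKM in the S100A16 KD and 155 RPKM in the MagoHB KD. S100A16 itself stood at 5.34 RPKM in the S100A16 KD, below S100A3 at 6.32 RPKM, and at 37.8 RPKM in the MagoHB KD, above S100A4 at 35.2 RPKM. S100A10 and S100A6 were lower in the S100A16 KD, with log2 fold changes of -0.68 and -0.48. S100A4, a metastasis-associated member, was higher at 0.71 (adjusted p = 0.000268). S100A11 was -0.11 (adjusted p = 0.499) and was not separated.

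Of 21033 genes tested, 8382 (39.9%) differed at an adjusted p under 0.05. There were 4430 genes higher in the S100A16 KD (21.1%) and 3952 lower (18.8%). At least 2-fold apart were 2149 genes (10.2%), 1295 higher (6.16%) and 854 lower (4.06%). For 11118 genes (52.9%) all 3 libraries of one line lay above all 3 of the other. Without S100A16 KD 1 and MagoHB KD 2, 11004 of 21118 genes were called (52.1%), 5749 higher (27.2%) and 5255 lower (24.9%). Of these, 2660 were at least 2-fold apart (12.6%), 1650 higher (7.81%) and 1010 lower (4.78%). Of the 8382 genes called with all libraries, 7996 were still called, all in the same direction. Leaving out 1 library at a time gave 6165 genes without S100A16 KD 2 to 11672 without MagoHB KD 2. Without MagoHB KD 2 alone, 5935 of 21491 genes were higher and 5737 lower. Counts in gene lists below are read against these percentages. Counts without both libraries are read against those of that fit, where more of all genes were called.

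**Figure D2:**
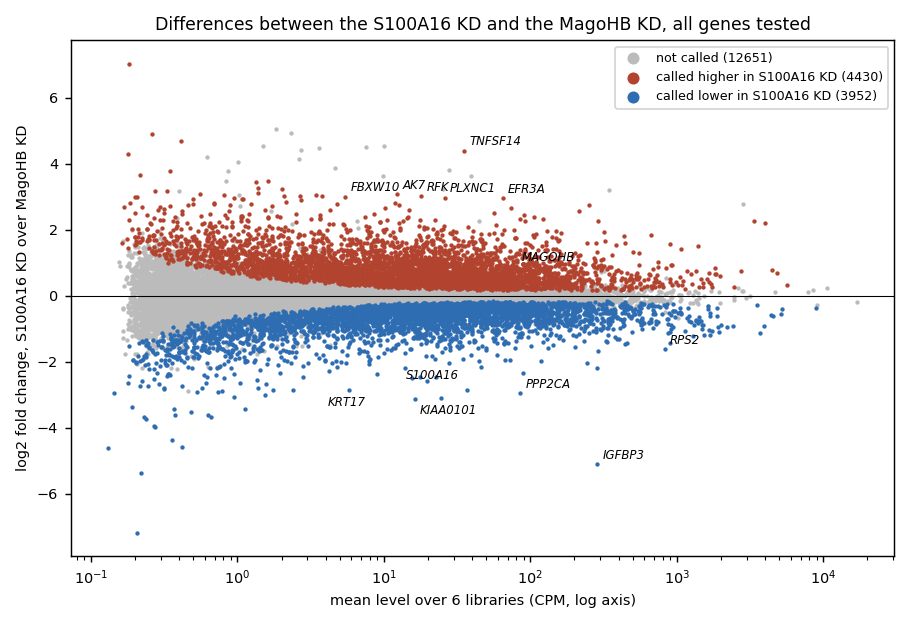
Log2 fold change of the S100A16 KD over the MagoHB KD against the mean level over the 6 libraries (CPM, log axis) for each gene tested; red marks genes called higher in the S100A16 KD, blue lower. IGFBP3 lies lowest among abundant genes at -5.11 and TNFSF14 highest among the labelled genes at 4.39.

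The highest and lowest genes named here were called genes with a gene symbol and at least 5 CPM. By the same rule their lines did not overlap and they stayed called without both libraries. Among them the largest positive difference was that of TNFSF14 (chromosome 19, 6661253 to 6670588), which encodes the cytokine LIGHT of the TNF superfamily. It had 62.4, 70.0 and 69.8 CPM in the S100A16 KD, against 2.02, 5.25 and 2.18 CPM in the MagoHB KD, a level 21.0-fold higher in the S100A16 KD (log2 fold change 4.39 ± 0.35 (SE), adjusted p = 8.75e-05). The groups were far apart, and MagoHB KD 2 was the highest library of its line. The log2 fold change was 4.98 without MagoHB KD 2 and 5.04 without both libraries. Next came AK7, an adenylate kinase of cilia, which had 21.1, 21.7 and 22.8 CPM in the S100A16 KD, against 2.63, 2.34 and 2.8 CPM in the MagoHB KD. RFK, the kinase that makes flavin mononucleotide from riboflavin, had 31.5, 32.1 and 31.8 CPM in the S100A16 KD, against 4.05, 3.74 and 4.0 CPM in the MagoHB KD (log2 fold change 3.02 ± 0.08 (SE), adjusted p = 6.86e-07). Both lines held these genes within a narrow band. FBXW10, an F-box protein, and PLXNC1, a semaphorin receptor, followed at 3.01 and 2.97; PLXNC1 overlaps CEP83. EFR3A, which anchors a phosphoinositide kinase at the plasma membrane, had 113, 116 and 115 CPM in the S100A16 KD, against 17.3, 12.4 and 14.6 CPM in the MagoHB KD. ANPEP, the surface aminopeptidase N (CD13), had 21.1, 21.7 and 19.9 CPM in the S100A16 KD, against 3.47, 2.53 and 2.98 CPM in the MagoHB KD.

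Several of the remaining high genes act in the secretory route, the matrix or receptor signalling. PLOD2, a lysyl hydroxylase that prepares collagen for cross-linking, had 437, 451 and 432 CPM in the S100A16 KD, against 63, 68.4 and 65 CPM in the MagoHB KD (log2 fold change 2.75 ± 0.07 (SE), adjusted p = 6.86e-07). NID1, the basement membrane protein nidogen, had 94.1, 95.5 and 98.8 CPM in the S100A16 KD, against 18.2, 15.2 and 17.7 CPM in the MagoHB KD. GCC2, a golgin that tethers vesicles at the Golgi, had 374, 375 and 356 CPM in the S100A16 KD, against 64.5, 59.8 and 63.1 CPM in the MagoHB KD. These 3 genes were abundant, with replicates close together. IL1RAP, the shared coreceptor of the interleukin-1 family, had 24.6, 25 and 27.4 CPM in the S100A16 KD, against 4.46, 4.34 and 3.87 CPM in the MagoHB KD. PALM3, TMOD2 (a tropomodulin that caps actin filaments and whose gene overlaps LYSMD2), RAB37 and the glutamate receptor subunit GRIN2B completed the highest genes, with log2 fold changes between 2.44 and 2.66.

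Among genes picked by this rule, the largest negative difference was that of IGFBP3 (chromosome 7, 45912245 to 45921874), a secreted binder of insulin-like growth factors. It had 14.6, 17.5 and 16 CPM in the S100A16 KD, against 366, 813 and 481 CPM in the MagoHB KD, 34.5-fold lower in the S100A16 KD (log2 fold change -5.11 ± 0.32 (SE), adjusted p = 3.08e-05). MagoHB KD 2 was its highest library, and without that library and S100A16 KD 1 the log2 fold change was -4.67. PPP2CA (chromosome 5, 134194334 to 134226142), the alpha catalytic subunit of protein phosphatase 2A (PP2A), had 19.5, 19.4 and 19.4 CPM in the S100A16 KD, against 159, 136 and 155 CPM in the MagoHB KD (log2 fold change -2.95 ± 0.08 (SE), adjusted p = 6.86e-07). All 3 libraries of each line lay close together. The feature MIR3661 lies inside PPP2CA and was lower as well (-3.13), and reads of the host gene and of features on the other strand cannot be told apart. On the same strand PPP2CA overlaps CTD-2410N18.5, with 105 CPM in the S100A16 KD and 150 CPM in the MagoHB KD. It also overlaps CTD-2410N18.4, with 5.67 CPM in the S100A16 KD and 33.9 CPM in the MagoHB KD. How shared reads were assigned is not given, so the level of PPP2CA is uncertain. KIAA0101 (PCLAF), a clamp-associated factor of DNA replication, had 4.83, 5.15 and 5.45 CPM in the S100A16 KD, against 56.6, 26.6 and 48.8 CPM in the MagoHB KD, with MagoHB KD 2 the lowest of its line.

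Further genes at this end were of several kinds, 2 keratins among them. KRT17 had 1.47, 1.4 and 1.36 CPM in the S100A16 KD, against 8.58, 14.1 and 7.74 CPM in the MagoHB KD. CBX2, a subunit of the Polycomb repressive complex, had 5.18, 5.37 and 5.56 CPM in the S100A16 KD, against 33.7, 23.9 and 31.4 CPM in the MagoHB KD. H19, an imprinted long RNA, had 3.3, 2.99 and 2.44 CPM in the S100A16 KD, against 21.9, 6.69 and 16.8 CPM in the MagoHB KD, with MagoHB KD 2 again the nearest to the S100A16 KD. PSAP, the precursor of the saposins of the lysosome, had 101, 99.8 and 105 CPM in the S100A16 KD, against 434, 519.8 and 446 CPM in the MagoHB KD (log2 fold change -2.19 ± 0.09 (SE), adjusted p = 1.84e-06). TOMM5, a small subunit of the import channel in the outer mitochondrial membrane that overlaps other features, had 32.3, 28 and 27.9 CPM in the S100A16 KD, against 164, 125 and 159.7 CPM in the MagoHB KD. KRT80, RNF26, COL11A2, MIEF1 (a factor of mitochondrial fission) and DOCK2 lay between -2.48 and -2.05.

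**Figure D3:**
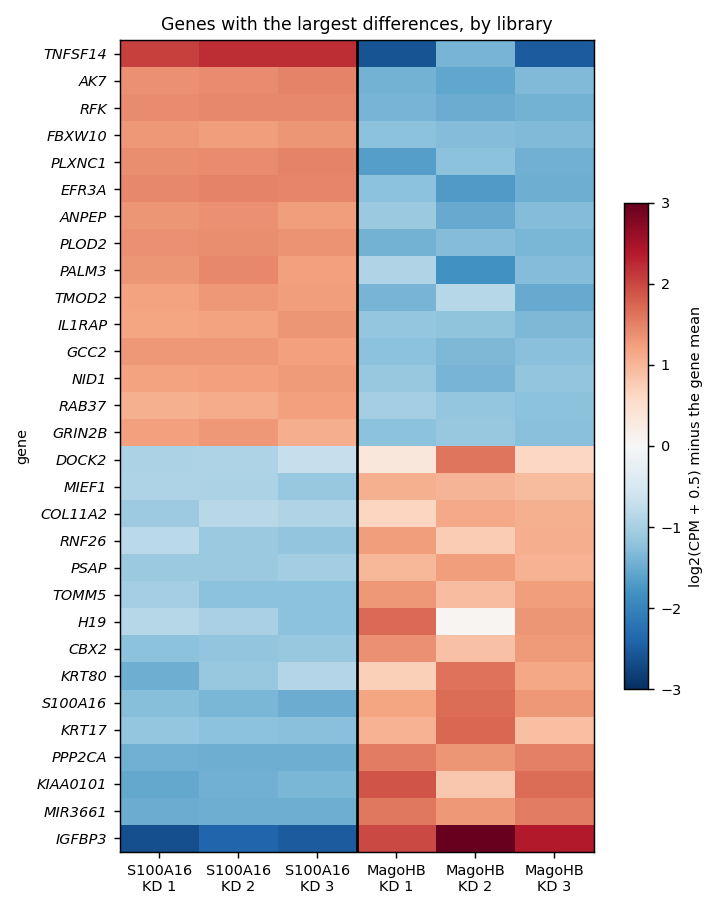
The 15 genes with the highest and the 15 with the lowest log2 fold change by the naming rule, as log2(CPM + 0.5) minus the mean of the gene over the 6 libraries; rows are genes, columns libraries, the S100A16 KD left of the line. The 3 S100A16 KD libraries lie close together in most genes. MagoHB KD 2 departs from its replicates for several genes, among them TNFSF14, IGFBP3, KRT17, H19, KIAA0101, TMOD2 and DOCK2.

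Cytosolic ribosomal proteins, the subunits of the ribosome itself, were lower in the S100A16 KD without exception. All 79 genes tested were called lower, where 18.8% of all genes were, and in all 79 the lines did not overlap. The log2 fold changes ran from -1.63 to -0.45 with a median of -0.81, where the median of all genes lay within 0.03 of 0. Summed over the 79 genes, levels were 33968, 34814 and 34831 CPM in the S100A16 KD, against 62106, 61026 and 61685 CPM in the MagoHB KD. The libraries of a line agreed to a few percent of the sum. All 79 were also lower without any single library, without both libraries that stood apart and under every other fit tried. Against MagoHB KD 1, 2 and 3 taken singly, the median was -0.85, -0.80 and -0.82.

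RPS2 of the small subunit had 399, 414 and 399 CPM in the S100A16 KD, against 1282, 1175 and 1289 CPM in the MagoHB KD (log2 fold change -1.63 ± 0.07 (SE), adjusted p = 2.18e-06). RPL12 of the large subunit had 463, 492 and 506 CPM in the S100A16 KD, against 1315, 1326 and 1282 CPM in the MagoHB KD (log2 fold change -1.43 ± 0.07 (SE), adjusted p = 2.86e-06). RPS12 and RPL24 followed at -1.38 and -1.26. At the other end, RPS28 had 9.35, 8.87 and 8.95 CPM in the S100A16 KD, against 13.1, 12.5 and 11.4 CPM in the MagoHB KD (-0.45), and RPL23A, at 4182 ± 117 CPM in the S100A16 KD and 6105 ± 108 CPM in the MagoHB KD (SD, n = 3), stood at -0.55. Ribosomal protein genes have many processed copies in the genome, and how the counting treated reads shared with them is not given.

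Vertebrate mRNAs of ribosomal proteins begin with a 5′ terminal oligopyrimidine (TOP) tract, a C followed by a run of pyrimidines at the transcription start, through which their translation follows nutrient signalling. The stretches below, from RefSeq on GRCh38.p14, span the annotated start of 4 members and show this shared feature, with the tract in capitals, each printed 5′ to 3′ on the strand of the gene.
RPL12, chr9:127451387-127451416, minus strand: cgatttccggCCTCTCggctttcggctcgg
RPS12, chr6:132814559-132814588, plus strand: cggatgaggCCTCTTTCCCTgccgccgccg
RPL24, chr3:101686699-101686728, minus strand: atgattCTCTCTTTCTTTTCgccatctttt
RPL41, chr12:56116623-56116652, plus strand: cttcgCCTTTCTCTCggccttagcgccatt
Searched as a C within 5 bases of the annotated start and followed by at least 4 letters that were each C or T, on the sense strand alone, the tract was found in 51 of 63 ribosomal protein promoters in the RefSeq table (81.0%). It was found in 5749 of all 27305 promoters (21.1%). All 63 of these genes were lower, and a match to the tract is a description only.

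Other parts of the translation machinery were then looked at by a list drawn up after values had been seen, which gets no test as a list. Of its 19 genes, 18 were lower in the S100A16 KD. The elongation factor EEF1A1 had 2261, 2364 and 2348 CPM in the S100A16 KD, against 5148, 5023 and 5167 CPM in the MagoHB KD (log2 fold change -1.14 ± 0.06 (SE), adjusted p = 6.34e-06). EEF2, which moves the ribosome along the mRNA, had 1073, 1147 and 1113 CPM in the S100A16 KD, against 2445, 2231 and 2350.5 CPM in the MagoHB KD. PABPC1, the cytoplasmic poly(A)-binding protein, had 1026, 1023 and 1042 CPM in the S100A16 KD, against 2336, 2304 and 2393 CPM in the MagoHB KD. In each the lines were more than 2-fold apart in mean. EIF3H was the exception, with a log2 fold change of 0.08 (adjusted p = 0.398).

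Genes that host small nucleolar RNAs in their introns, many of which are also TOP genes and are degraded by nonsense-mediated decay once spliced, were lower as well. Of 26 such hosts and other decay-sensitive RNAs, 17 were lower and 1 higher, and 18 were lower and 2 higher without both libraries. Leaving out 1 library at a time left 13 to 18 lower, while the higher count was 2 without MagoHB KD 2 and 0 without MagoHB KD 3, S100A16 KD 2 or S100A16 KD 3. The median was -0.51, and against each MagoHB KD library alone it was -0.52, -0.50 and -0.50. GAS5 had 43.4, 46.5 and 41.2 CPM in the S100A16 KD, against 85.5, 99.6 and 85.7 CPM in the MagoHB KD (log2 fold change -1.05 ± 0.08 (SE), adjusted p = 3.46e-05). SNHG5 had 78.2, 76.8 and 76.6 CPM in the S100A16 KD, against 148, 156 and 141 CPM in the MagoHB KD. ZFAS1 had 95.3, 99.5 and 95.3 CPM in the S100A16 KD, against 146, 220.1 and 149 CPM in the MagoHB KD, with MagoHB KD 2 the highest library.

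Components of the exon junction complex leaned the same way. Of 19 genes, 11 were lower in the S100A16 KD and 2 higher, with a median of -0.33. MAGOHB, the target in the other line, and SAP18 (0.57), part of the peripheral ASAP complex, were the 2 that were higher. UPF3A, a paralogue of the factor UPF3B that bridges the complex to decay, had 197, 204 and 197 CPM in the S100A16 KD, against 416, 410.3 and 398 CPM in the MagoHB KD (log2 fold change -1.04 ± 0.06 (SE), adjusted p = 8.61e-06). PYM1, which takes the complex apart on ribosomes, had 36.7, 37 and 36.9 CPM in the S100A16 KD, against 58.7, 58.5 and 56.6 CPM in the MagoHB KD. The splicing-linked factors PNN and SRRM1 stood at -0.65 and -0.56, and the list gave 10 to 14 lower genes when 1 library at a time was left out.

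Among 22 factors of nonsense-mediated decay, 10 were lower and 3 higher. GSPT1, the release factor eRF3a, had 104, 101 and 101 CPM in the S100A16 KD, against 336, 263 and 305 CPM in the MagoHB KD (log2 fold change -1.56 ± 0.09 (SE), adjusted p = 9.31e-06). SMG6, the endonuclease that cuts decay targets, had 31.6, 28.7 and 27.7 CPM in the S100A16 KD, against 57.7, 68.8 and 62.2 CPM in the MagoHB KD. UPF1, the central helicase, had 53.3, 54.6 and 54.9 CPM in the S100A16 KD, against 48, 44.3 and 46.8 CPM in the MagoHB KD, a difference of 0.23 whose call (adjusted p = 0.0210) was lost when MagoHB KD 3 or any S100A16 KD library was left out, at adjusted p values of 0.0593 to 0.0827. It was also lost with the replicate number as a block (adjusted p = 0.0553) and with no filter beyond 1 count (adjusted p = 0.067). Without one of those libraries 0 or 1 of the factors were called higher.

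Of 47 core spliceosome genes, 23 were lower and 2 higher (median -0.20), where 18.8% of all genes were lower. Without both libraries 33 were lower, and without MagoHB KD 2 alone 35. SNRNP200, the helicase that unwinds the U4/U6 duplex, had 235, 225 and 216 CPM in the S100A16 KD, against 595, 489 and 577 CPM in the MagoHB KD (log2 fold change -1.30 ± 0.09 (SE), adjusted p = 1.56e-05). SNRPB, an Sm protein of the snRNP core, had 164, 156 and 154 CPM in the S100A16 KD, against 424, 251 and 370.4 CPM in the MagoHB KD. MagoHB KD 2 was the lowest of its line in both and still above every S100A16 KD library. Of 30 SR proteins and splicing kinases, 14 were lower and 2 higher (4 higher without both libraries), but leaving out 1 library left 4 to 18 lower, the fewest without MagoHB KD 3 or S100A16 KD 3 and the most without MagoHB KD 2. The values without MagoHB KD 1, S100A16 KD 1 and S100A16 KD 2 were 9, 6 and 5. SRSF12 was higher, with 7.52, 7.95 and 9.54 CPM in the S100A16 KD, against 3.14, 3.4 and 3.16 CPM in the MagoHB KD.

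Of 37 hnRNP genes, 16 were lower and 6 higher, with 27 lower without both libraries, 29 without MagoHB KD 2 and 10 without S100A16 KD 1. HNRNPA1, an abundant repressor of splice sites with many processed copies, had 2764, 2712 and 2706 CPM in the S100A16 KD, against 5998, 3937 and 5579 CPM in the MagoHB KD (log2 fold change -0.92 ± 0.14 (SE), adjusted p = 0.00142). PTBP3, a polypyrimidine tract binding protein, went the other way with 52, 55.2 and 50.5 CPM in the S100A16 KD, against 17.7, 16.5 and 15.9 CPM in the MagoHB KD (log2 fold change 1.65 ± 0.08 (SE), adjusted p = 2.95e-06). The 3 libraries of each line were close together for PTBP3, whereas HNRNPA1 in MagoHB KD 2 lay between its replicates and the S100A16 KD.

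Interferon-stimulated genes, which encode sensors and effectors against viruses and are induced by interferon signalling, were higher in the S100A16 KD. Of 57 genes tested, 32 were higher, where 21.1% of all genes were, and 1 was lower (OAS3, -0.29). The median was 0.72. Without both libraries 53 were higher and 2 lower, and the median was 1.02. The difference depended on the MagoHB KD library, with medians of 1.01, 0.25 and 0.78 against MagoHB KD 1, 2 and 3. Without MagoHB KD 2 alone, 53 were higher and 2 lower; 2 were lower without MagoHB KD 1 and 0 without S100A16 KD 2.

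OAS1, a sensor of double-stranded RNA, had 145, 146 and 155 CPM in the S100A16 KD, against 50.8, 53.8 and 50.5 CPM in the MagoHB KD (log2 fold change 1.52 ± 0.06 (SE), adjusted p = 2.29e-06). DDX58, which encodes the sensor RIG-I, had 148, 152 and 157 CPM in the S100A16 KD, against 23.1, 43.5 and 28.9 CPM in the MagoHB KD (log2 fold change 2.25 ± 0.21 (SE), adjusted p = 0.000191). IFIT1, which binds viral RNA lacking the host cap, had 218, 209 and 222 CPM in the S100A16 KD, against 81.9, 117 and 87.3 CPM in the MagoHB KD. In OAS1 the MagoHB KD libraries lay together, whereas in DDX58 and IFIT1 MagoHB KD 2 was the nearest to the S100A16 KD. BST2 (tetherin), which holds virions at the cell surface, had 5.49, 5.37 and 4.93 CPM in the S100A16 KD, against 1.06, 1.62 and 1.56 CPM in the MagoHB KD. OAS3 went the other way with 68.4, 61.8 and 66.4 CPM in the S100A16 KD, against 76.8, 83 and 80.2 CPM in the MagoHB KD (log2 fold change -0.29, adjusted p = 0.00979), a call lost without S100A16 KD 2 (adjusted p = 0.0616).

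The promoters of such genes often hold the interferon-stimulated response element, a short motif through which interferon raises transcription. Stretches of 80 bases from RefSeq on GRCh38.p14 show it, in capitals, for 4 genes called higher, each printed 5′ to 3′ on the strand of the gene.
BST2, chr19:17405716-17405795, minus strand: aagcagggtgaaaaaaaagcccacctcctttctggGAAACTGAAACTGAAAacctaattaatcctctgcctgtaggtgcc
IFIT1, chr10:89392472-89392551, plus strand: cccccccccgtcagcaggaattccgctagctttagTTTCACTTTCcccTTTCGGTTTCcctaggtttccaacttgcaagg
HERC5, chr4:88456959-88457038, plus strand: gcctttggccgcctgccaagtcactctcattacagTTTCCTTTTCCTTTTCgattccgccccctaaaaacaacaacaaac
PLSCR1, chr3:146544642-146544721, minus strand: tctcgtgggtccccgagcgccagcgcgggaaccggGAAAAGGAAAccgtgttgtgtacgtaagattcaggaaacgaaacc
The motif was searched as GAAA, NN (any 2 bases) and GAAA again, and on the other strand as TTTC, NN and TTTC, in windows of 300 bases around annotated starts, where overlapping matches were counted once per promoter. It was found in 29 of 46 interferon-stimulated genes in the RefSeq table (63.0%) and in 996 of 27305 promoters overall (3.65%). Of the genes called higher 16 of 26 held it, and of those not called 12 of 19 did. A match is a description and does not show binding.

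Class I molecules present peptides to T cells, and interferon raises the genes for them. Of 22 genes of MHC class I and the immunoproteasome, 10 were higher and 2 lower, and 16 were higher without both libraries (16 also without MagoHB KD 2 alone). The lower count was 1 without MagoHB KD 3 or any S100A16 KD library, with the replicate block and by total counts alone. PSMB8, a catalytic subunit of the immunoproteasome, had 27.4, 26.1 and 28.3 CPM in the S100A16 KD, against 9.59, 11.7 and 8.63 CPM in the MagoHB KD (log2 fold change 1.45 ± 0.12 (SE), adjusted p = 3.36e-05). B2M, the light chain of class I molecules, had 195, 209.6 and 210.1 CPM in the S100A16 KD, against 86.8, 136 and 95.3 CPM in the MagoHB KD. TAP2, a subunit of the peptide transporter, was lower, with 14.4, 13.6 and 16.2 CPM in the S100A16 KD, against 38.7, 43.9 and 39.2 CPM in the MagoHB KD (log2 fold change -1.46 ± 0.09 (SE), adjusted p = 1.23e-05). HLA-B did not pass the test (log2 fold change 0.25, adjusted p = 0.555), with MagoHB KD 2 above all other libraries. Its log2 fold change was 0.69 without MagoHB KD 2 (adjusted p = 6.57e-06) and -0.01 without MagoHB KD 1 (adjusted p = 0.989).

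NF-kB and inflammatory genes depended on MagoHB KD 2. With all libraries 10 of 34 were higher and 2 lower (median 0.13). Without MagoHB KD 2 alone 24 were higher, and without both libraries 25, while with no filter beyond 1 count 6 were. The median was 0.77, -0.25 and 0.47 against MagoHB KD 1, 2 and 3, so the list lay on the other side against that library. CCL2, a chemokine for monocytes, had 28.8, 34 and 26.9 CPM in the S100A16 KD, against 6.68, 14.2 and 8.32 CPM in the MagoHB KD (log2 fold change 1.61 ± 0.26 (SE), adjusted p = 0.00252). The complement component C3 had 340.1, 380.1 and 390.4 CPM in the S100A16 KD, against 113, 247 and 147 CPM in the MagoHB KD, and its call did not hold when genes of at least 1 count were all kept (adjusted p = 0.111). Counts of lower genes were 1 to 3 when single libraries were left out, with 1 without any one S100A16 KD library, by total counts alone or with no filter.

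Among 26 ligands and receptors of the TNF superfamily, 9 were higher and 3 lower, and 14 were higher without MagoHB KD 2 and 15 without both libraries. TNFSF14 led this list. TNFSF10, the death ligand TRAIL, had 3.76, 3.89 and 4.66 CPM in the S100A16 KD, against 1.72, 1.44 and 1.51 CPM in the MagoHB KD (log2 fold change 1.40 ± 0.16 (SE), adjusted p = 0.00021). Its decoy receptor TNFRSF10D was lower, with 9.6, 11.6 and 9.76 CPM in the S100A16 KD, against 28.8, 27.7 and 28.1 CPM in the MagoHB KD (log2 fold change -1.45 ± 0.09 (SE), adjusted p = 1.32e-05). The other 2 lower genes, TNFRSF21 and TNFRSF12A, lost their calls by total counts alone and without any one of the S100A16 KD libraries, which left 1 lower gene.

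Genes of DNA replication and the G1/S transition, among them the MCM helicase and the enzymes that supply nucleotides, were lower for 24 of 49 members and higher for 2. When single libraries were left out the count ran from 12 without MagoHB KD 3 or S100A16 KD 1 to 44 without MagoHB KD 2, and it was 14 without MagoHB KD 1 and 13 without S100A16 KD 2 or 3. The higher count was 1 without S100A16 KD 1 or 3. Without both libraries 44 were lower, and with no filter beyond 1 count 8 were. The median of -0.52 split into -0.77, -0.03 and -0.67 against MagoHB KD 1, 2 and 3. In 44 of 49 genes MagoHB KD 2 lay nearer to the S100A16 KD mean than to the mean of its replicates, where this held for 8068 of all 21033 genes (38.4%). RRM2, a subunit of ribonucleotide reductase, had 133, 133 and 132 CPM in the S100A16 KD, against 377, 189.6 and 329.6 CPM in the MagoHB KD (log2 fold change -1.17 ± 0.23 (SE), adjusted p = 0.00593). MCM5 of the replicative helicase had 56.3, 53.5 and 58 CPM in the S100A16 KD, against 133, 73.4 and 122 CPM in the MagoHB KD (log2 fold change -0.97 ± 0.20 (SE), adjusted p = 0.00798). Neither call held when all genes of at least 1 count were kept (adjusted p = 0.0596 for RRM2 and 0.0718 for MCM5).

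The count of mitotic genes called moved with MagoHB KD 2. With all libraries 8 of 45 were lower (17.8%, near the 18.8% of all genes) and 0 higher. Without MagoHB KD 2 alone 40 were lower and 2 higher, and 2 were also higher without MagoHB KD 1. Without both libraries 40 were lower and 2 higher. The lower count was 14 by DESeq2 or with all 18 libraries and 4 with no filter beyond 1 count, and these fits gave 1, 2 and 1 higher. Against MagoHB KD 1 and 3 the median was -0.55 and -0.40, but against MagoHB KD 2 it was 0.40, in the opposite direction. CDC25B, the phosphatase that starts mitosis, had 37.8, 34.2 and 40.3 CPM in the S100A16 KD, against 106, 86.2 and 101 CPM in the MagoHB KD (log2 fold change -1.39 ± 0.10 (SE), adjusted p = 1.88e-05). CCNA2, which encodes cyclin A2, had 24.7, 22.1 and 24.9 CPM in the S100A16 KD, against 54.7, 33.5 and 52.7 CPM in the MagoHB KD. Both stayed apart in all libraries. MKI67, the proliferation antigen Ki-67, had 825, 747 and 768 CPM in the S100A16 KD, against 1525, 766 and 1451 CPM in the MagoHB KD (log2 fold change -0.68, adjusted p = 0.0591), and MagoHB KD 2 lay within the S100A16 KD range. It passed the test without MagoHB KD 2 (adjusted p = 4.31e-17) and by DESeq2 (adjusted p = 0.00507). CDK1 had 88, 83.1 and 79.6 CPM in the S100A16 KD, against 111, 48.8 and 94.9 CPM in the MagoHB KD (log2 fold change -0.02, adjusted p = 0.959), with MagoHB KD 2 below every S100A16 KD library. Its log2 fold change was -0.32 without MagoHB KD 2 (adjusted p = 4.7e-05), but 0.21 without MagoHB KD 1 and 0.07 without MagoHB KD 3.

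Targets of p53, which halt the cycle or promote cell death, gave 5 higher and 5 lower of 32 with all libraries, and 19 higher and 5 lower without both. With all libraries 31.25% were called, against 39.9% of all genes, and without both 52.1% of all genes were called. Without MagoHB KD 2 alone 18 were higher, and with no filter beyond 1 count 3. TP53INP1 had 16.6, 17.6 and 16 CPM in the S100A16 KD, against 3.44, 5.55 and 3.29 CPM in the MagoHB KD (log2 fold change 2.02 ± 0.19 (SE), adjusted p = 8.87e-05). CDKN1A, the cell cycle inhibitor p21, had 50.9, 58.9 and 58.6 CPM in the S100A16 KD, against 33.3, 61.7 and 32.1 CPM in the MagoHB KD (log2 fold change 0.40, adjusted p = 0.236). MagoHB KD 2 lay above the S100A16 KD for CDKN1A, and its replicates below, and without that library the log2 fold change was 0.76 (adjusted p = 1.83e-11). Of 17 replication-dependent histone genes, whose mRNAs mostly lack a poly(A) tail and are poorly captured here, 7 were lower and 0 higher, with 4 lower without any one S100A16 KD library, 2 higher without MagoHB KD 2 and 1 higher without both libraries.

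**Figure D4:**
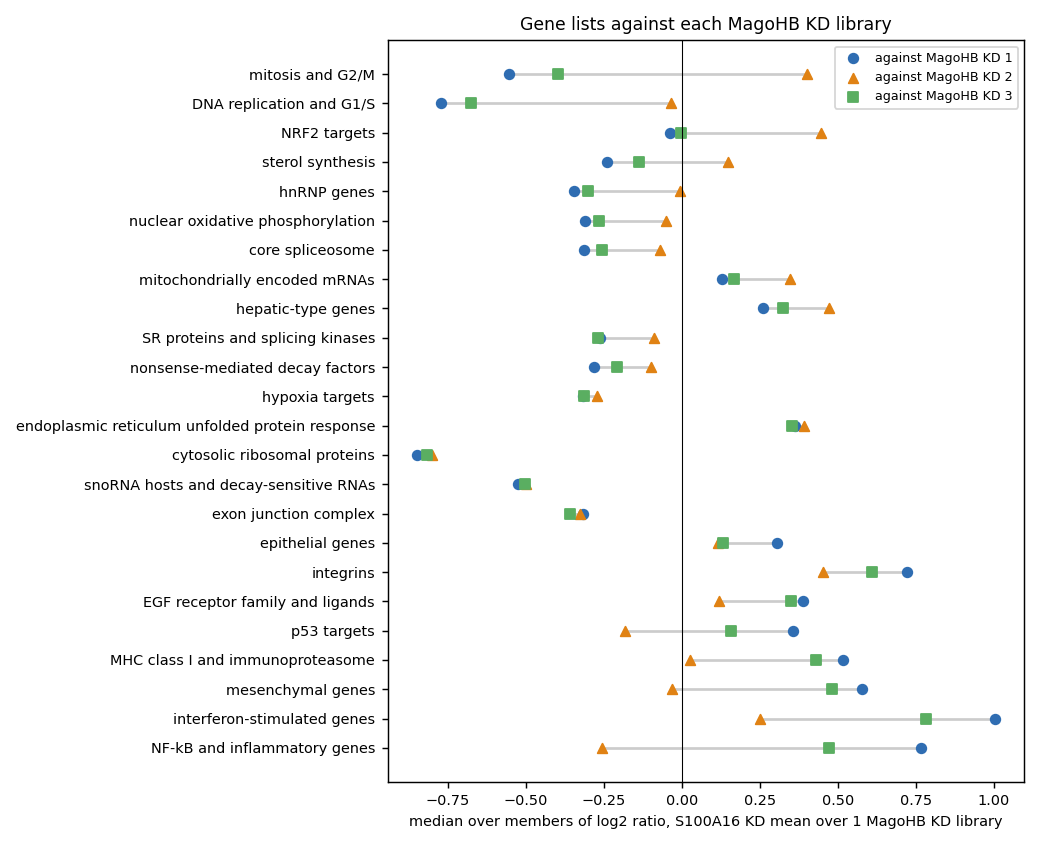
Median over the members of 24 gene lists of the log2 ratio of the S100A16 KD mean over each MagoHB KD library. Lists are ordered by how far the value against MagoHB KD 2 departs from that against its replicates: mitotic, DNA replication, NF-kB and interferon genes are spread widely, whereas ribosomal protein, snoRNA host and unfolded protein response genes lie together.

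NRF2, the transcription factor of the oxidative stress response, activates genes that make glutathione, reduce quinones and handle iron and heme. Of 35 targets, 14 were higher and 6 lower in the S100A16 KD, with a median of 0.08. The count of higher genes was 8 without S100A16 KD 1 and 7 without S100A16 KD 2 or 3, and 16 were lower without MagoHB KD 2 and 14 without both libraries. HMOX1, heme oxygenase, had 14.4, 13.5 and 15.7 CPM in the S100A16 KD, against 53.3, 54.4 and 58.1 CPM in the MagoHB KD (log2 fold change -1.93 ± 0.08 (SE), adjusted p = 2.29e-06). FTH1, the heavy chain of the iron store ferritin, had 904, 914 and 978 CPM in the S100A16 KD, against 2311, 1877 and 2258 CPM in the MagoHB KD (log2 fold change -1.21 ± 0.09 (SE), adjusted p = 2.6e-05). Both genes were lower in the S100A16 KD without overlap.

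Some of the other NRF2 targets were higher. SLC7A11, the cystine importer, had 427, 408 and 396 CPM in the S100A16 KD, against 149.6, 186 and 154 CPM in the MagoHB KD (log2 fold change 1.33 ± 0.09 (SE), adjusted p = 1.71e-05). ALDH3A1, which oxidises aldehydes, had 666, 734 and 649 CPM in the S100A16 KD, against 204, 180.4 and 195 CPM in the MagoHB KD (log2 fold change 1.82 ± 0.08 (SE), adjusted p = 2.29e-06). NQO1, the quinone reductase, had 982, 1021 and 962 CPM in the S100A16 KD, against 833, 482 and 742 CPM in the MagoHB KD (log2 fold change 0.53, adjusted p = 0.0549). It did not pass the test, and MagoHB KD 2 was far below its replicates. It passed without that library (log2 fold change 0.31, adjusted p = 3.79e-06) and by DESeq2 (log2 fold change 0.51, adjusted p = 0.0144). Of 25 other antioxidant enzymes 10 were higher and 3 lower. These included the methionine sulfoxide reductase MSRB3 (1.34) and the mitochondrial peroxiredoxin PRDX3 (0.70), while PRDX5 was lower (-0.53). The number of lower enzymes was 8 without MagoHB KD 2 and 8 without both libraries. Of 26 aldo-keto reductases and aldehyde dehydrogenases 9 were higher and 3 lower, among the higher ones ALDH5A1 with 31.9, 29.3 and 29.7 CPM in the S100A16 KD, against 8.43, 6.2 and 6.76 CPM in the MagoHB KD, and 7 were lower without MagoHB KD 2 and 7 without both libraries. Metallothionein and zinc transport genes gave 6 higher and 5 lower of 18, of which only 2 were lower without any one S100A16 KD library and 3 without MagoHB KD 1 or 3.

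The unfolded protein response of the endoplasmic reticulum raises chaperones and the machinery that removes misfolded proteins. Of 31 genes, 18 were higher in the S100A16 KD and 5 lower, with a median of 0.29. Against MagoHB KD 1, 2 and 3 singly the median of log2 ratios was 0.36, 0.39 and 0.35. The number of higher genes stayed within 16 to 20 when single libraries were left out, and the number of lower genes was 2 or 3 without an S100A16 KD library and 3 by total counts alone. SEL1L, the adaptor of the HRD1 ubiquitin ligase, had 187, 176 and 169 CPM in the S100A16 KD, against 37.9, 31.3 and 33.4 CPM in the MagoHB KD (log2 fold change 2.38 ± 0.09 (SE), adjusted p = 1.63e-06). EDEM3, which trims mannose from misfolded glycoproteins, had 72.3, 71.5 and 67.5 CPM in the S100A16 KD, against 21.3, 20.9 and 21.9 CPM in the MagoHB KD (log2 fold change 1.72 ± 0.07 (SE), adjusted p = 1.82e-06). DNAJB9, a cochaperone induced by IRE1 signalling, had 55.7, 55.4 and 55 CPM in the S100A16 KD, against 16.3, 21.2 and 19.7 CPM in the MagoHB KD. The abundant chaperones differed less, with HSP90B1 (GRP94) at 5934 ± 180.0 CPM in the S100A16 KD and 3673 ± 115 CPM in the MagoHB KD (SD, n = 3; log2 fold change 0.69) and HSPA5 (BiP) at 0.28. The call of HSPA5 held without MagoHB KD 2 but was lost without any other single library, at adjusted p values of 0.0581 to 0.084.

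Of 32 heat shock chaperones, 8 were higher and 5 lower (40.6% called, near the 39.9% of all genes). HSPA4L, a nucleotide exchange factor of HSP70, had 92.5, 98 and 96.4 CPM in the S100A16 KD, against 32.6, 34 and 31 CPM in the MagoHB KD (log2 fold change 1.55 ± 0.07 (SE), adjusted p = 2.29e-06). The lower count was 2 without MagoHB KD 3 or any S100A16 KD library, 13 without MagoHB KD 2 and 12 without both libraries, and the higher count was 5 without S100A16 KD 1. Genes of the ATF4 program, which supplies amino acids under stress, gave 6 higher and 7 lower of 40 with all libraries (32.5% called, against 39.9% of all genes). Without MagoHB KD 2 they gave 20 higher and 11 lower, and without both libraries 20 higher and 10 lower. In the fit without both, 27.2% of all genes were higher and 24.9% lower.

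Metabolic lists were mostly mixed. Of 23 hypoxia targets 11 were lower and 3 higher (median -0.30), and single libraries left out gave 9 to 16 lower. EGLN1, the oxygen-sensing hydroxylase PHD2, had 38.8, 41.6 and 41.3 CPM in the S100A16 KD, against 81.8, 70.2 and 74.9 CPM in the MagoHB KD (log2 fold change -0.90 ± 0.08 (SE), adjusted p = 4.54e-05). ADM, the peptide adrenomedullin, had 36.1, 37.3 and 38.4 CPM in the S100A16 KD, against 65.6, 48.7 and 65.5 CPM in the MagoHB KD. LOXL2, a lysyl oxidase that cross-links collagen, was higher at 1.27. Of 24 glycolytic genes 9 were lower and 5 higher, with 14 lower without MagoHB KD 2, 14 lower without both libraries and 3 higher without MagoHB KD 3 or S100A16 KD 2. GAPDH, often used as an internal standard, had 1002, 1042 and 1131 CPM in the S100A16 KD, against 2235, 1635 and 2018 CPM in the MagoHB KD (log2 fold change -0.89 ± 0.11 (SE), adjusted p = 0.000409).

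Nuclear genes of oxidative phosphorylation were lower for 30 of 69 and higher for 4. The lower count was 48 without MagoHB KD 2, 16 without MagoHB KD 3 or S100A16 KD 1 and 15 without S100A16 KD 2. Those libraries gave 4, 4, 3 and 2 higher genes, and 8 were higher without MagoHB KD 1. COX8A, a small subunit of cytochrome c oxidase, overlaps the feature AP000721.4 on the same strand. That feature had 61.7 CPM in the S100A16 KD and 53.5 CPM in the MagoHB KD, so the level of COX8A is uncertain. COX8A had 2.87, 3.19 and 3.93 CPM in the S100A16 KD, against 12.9, 11.3 and 13.8 CPM in the MagoHB KD (log2 fold change -1.92 ± 0.14 (SE), adjusted p = 2.39e-05). UQCRB, a subunit of complex III, stood out in the other direction with 359, 357 and 381 CPM in the S100A16 KD, against 135, 105 and 119.5 CPM in the MagoHB KD (log2 fold change 1.61 ± 0.10 (SE), adjusted p = 9.65e-06). Of the 13 mRNAs encoded by mitochondrial DNA 6 were higher and 2 lower, with 3 higher and 1 lower without S100A16 KD 1 or S100A16 KD 2. MT-CYB of complex III had 2442, 2402 and 2280.0 CPM in the S100A16 KD, against 1572, 1494 and 1609.5 CPM in the MagoHB KD. MT-CO1 was lower, with 7874, 7727 and 7668 CPM in the S100A16 KD, against 10388, 9397 and 10335 CPM in the MagoHB KD. Mitochondrial features took 7.56% to 7.86% of counts in the S100A16 KD, against 7.26% to 7.51% in the MagoHB KD.

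Of 26 genes of sterol synthesis 6 were higher and 10 lower, with the sterol oxidase MSMO1 at 1.74 and the farnesyl diphosphate synthase FDPS at -0.85. Fatty acid genes gave 8 higher and 5 lower of 25. Their counts were 5 higher without MagoHB KD 3 or S100A16 KD 2 or 3, and 3 lower without any 1 library except MagoHB KD 2, where 8 were lower. Without both libraries 9 were lower.

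**Figure D5:**
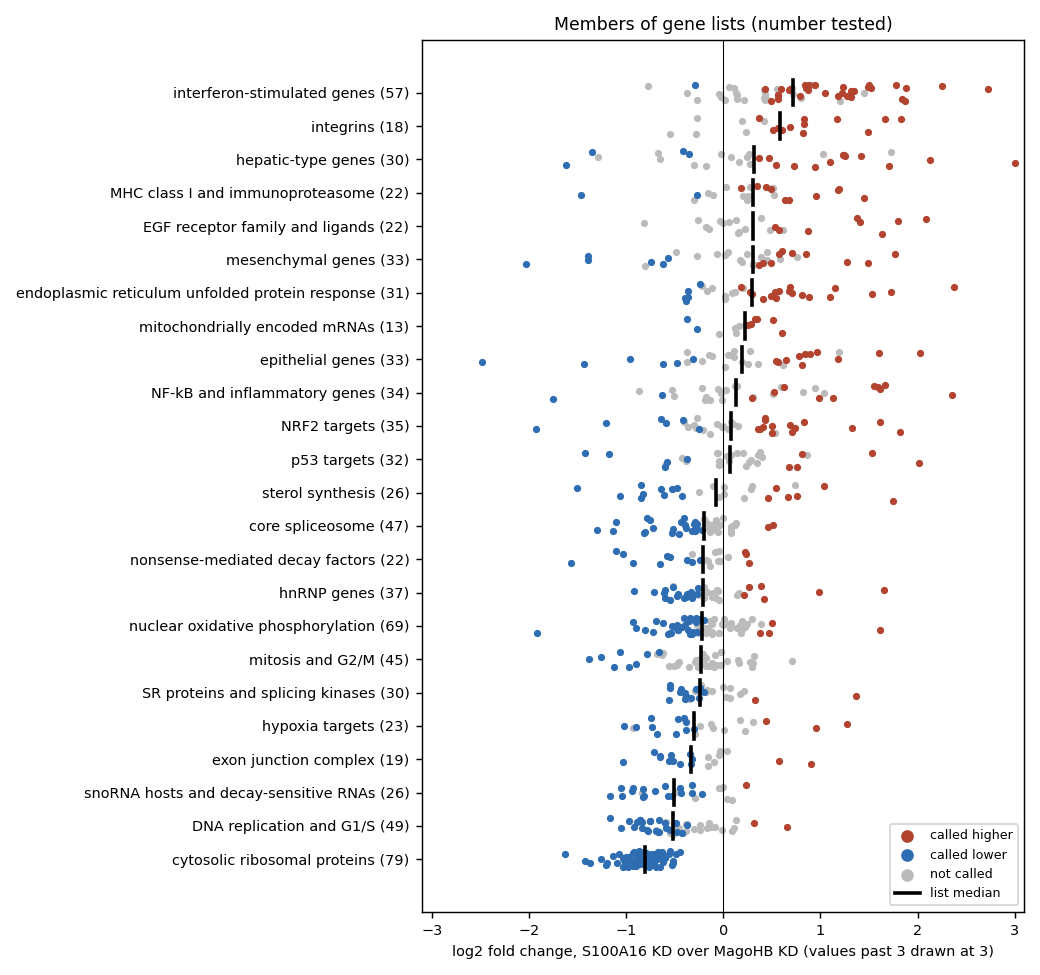
Log2 fold change of every tested member of 24 gene lists, one point a gene, with the median as a black bar; red points were called higher in the S100A16 KD, blue lower, grey not called. All 79 ribosomal protein genes lie below 0 at a median of -0.81, and interferon-stimulated genes have the highest median at 0.72.

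Integrins, the receptors that tie cells to the matrix, were higher in the S100A16 KD or did not pass the test. Of 18 genes 12 were higher and 0 lower (median 0.58), and single libraries left out gave 10 to 14 higher and 0 lower. ITGB1, the beta subunit shared by most matrix receptors, had 2101, 2069.9 and 2026 CPM in the S100A16 KD, against 737, 728 and 734 CPM in the MagoHB KD (log2 fold change 1.5 ± 0.06 (SE), adjusted p = 2.04e-06). ITGB5 had 155, 162 and 162 CPM in the S100A16 KD, against 79, 61.9 and 71.6 CPM in the MagoHB KD. ITGA10 and ITGA11, which pair with ITGB1 to bind collagen, stood at 1.83 and 0.82, and the call of ITGA10 did not hold when all genes of at least 1 count were kept (adjusted p = 0.0588). Of 41 genes for collagens and other matrix proteins 12 were higher and 5 lower (41.5% called, near the 39.9% of all genes). There were 19 higher without MagoHB KD 2, 20 higher without both libraries and 8 lower without MagoHB KD 1. Besides PLOD2 and NID1, the laminin chain LAMB1 had 840.5, 881 and 885 CPM in the S100A16 KD, against 477, 540.4 and 483 CPM in the MagoHB KD. COL1A1 was lower, with 15.3, 13.2 and 14.6 CPM in the S100A16 KD, against 48.2, 31.7 and 46.4 CPM in the MagoHB KD (log2 fold change -1.55 ± 0.16 (SE), adjusted p = 0.000168).

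The receptor of epidermal growth factor and its ligands were higher for 8 of 22 genes and lower for 0, with 16 higher and 3 lower without MagoHB KD 2 and 1 lower without MagoHB KD 1. Without both libraries 15 were higher and 1 lower. EGFR had 209, 213 and 225 CPM in the S100A16 KD, against 80.4, 80.4 and 82.8 CPM in the MagoHB KD (log2 fold change 1.41 ± 0.06 (SE), adjusted p = 2.56e-06). The ligands BTC and AREG stood at 1.80 and 0.58. In TGF-beta signalling, 11 of 42 genes were higher and 11 lower, where 21.1% of all genes were higher and 18.8% lower. There were 18 higher without MagoHB KD 2 and 19 without both libraries, where 27.2% of all genes were higher in the fit without both. TGFBR2, the receptor that binds the ligand, had 213, 211 and 226 CPM in the S100A16 KD, against 57.7, 69 and 60.6 CPM in the MagoHB KD (log2 fold change 1.79 ± 0.08 (SE), adjusted p = 2.95e-06). TGFBR1, the kinase it activates, was lower, with 137, 140.1 and 147 CPM in the S100A16 KD, against 226, 324 and 251 CPM in the MagoHB KD (log2 fold change -0.92 ± 0.12 (SE), adjusted p = 0.000622). The signal transducers SMAD2 and SMAD4 were lower at -0.67 and -0.62. The coreceptor TGFBR3 had 8.33, 8.43 and 8.27 CPM in the S100A16 KD, against 1.16, 1.49 and 0.979 CPM in the MagoHB KD.

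CYR61, a target of the coactivator YAP, had 26.3, 24.3 and 24.5 CPM in the S100A16 KD, against 57.3, 96.3 and 72 CPM in the MagoHB KD (log2 fold change -1.59 ± 0.18 (SE), adjusted p = 0.00035). Among 30 targets of YAP and TEAD 7 were higher and 8 lower, where 21.1% of all genes were higher and 18.8% lower. Without both libraries 11 were higher, where 27.2% of all genes were. CAV1, the coat protein of caveolae, had 34.5, 36.1 and 34.3 CPM in the S100A16 KD, against 102, 90.7 and 95.1 CPM in the MagoHB KD (log2 fold change -1.46 ± 0.07 (SE), adjusted p = 3.93e-06) and was the 1 lower gene of 9 tested in that list, against 3 without MagoHB KD 2 or without both libraries.

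Both epithelial and mesenchymal genes held members that were higher and members that were lower. Of 33 epithelial genes 11 were higher and 6 lower, and of 33 mesenchymal genes 10 were higher and 6 lower. Without MagoHB KD 2 alone, and likewise without both libraries, 19 mesenchymal genes were higher. Their median log2 fold change was 0.31 with all libraries and 0.55 without both, and it was 0.58, -0.03 and 0.48 against MagoHB KD 1, 2 and 3. CDH1, the E-cadherin of epithelial junctions, had 107, 96.6 and 107 CPM in the S100A16 KD, against 52.9, 35.2 and 49.4 CPM in the MagoHB KD (log2 fold change 1.18 ± 0.14 (SE), adjusted p = 0.000409). CLDN2, a pore-forming claudin of tight junctions, had 36.7, 30.8 and 36.8 CPM in the S100A16 KD, against 8.68, 6.91 and 9.99 CPM in the MagoHB KD. Among mesenchymal genes, VIM (vimentin) was lower with 387, 413 and 404 CPM in the S100A16 KD, against 616, 785 and 619 CPM in the MagoHB KD (log2 fold change -0.75 ± 0.10 (SE), adjusted p = 0.000552), while CDH2 (N-cadherin) was higher with 28.2, 31.9 and 30.6 CPM in the S100A16 KD, against 18.4, 21.8 and 19.4 CPM in the MagoHB KD.

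Keratins differed in both directions. KRT8 and KRT18, which pair in the filaments of simple epithelia, were higher, at 5612 ± 215 CPM in the S100A16 KD and 3273 ± 34.9 CPM in the MagoHB KD for KRT8 (SD, n = 3; log2 fold change 0.78) and 0.64 for KRT18. The 2 genes overlap on opposite strands, so reads of one can count for the other. Of 16 keratins 8 were lower, among them KRT17, KRT80 and KRT7, which had 233, 252 and 250.3 CPM in the S100A16 KD, against 517, 902 and 568 CPM in the MagoHB KD (log2 fold change -1.44 ± 0.20 (SE), adjusted p = 0.00126). In all 2 keratins were higher, against 4 without MagoHB KD 2 or without both libraries.

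Of 25 genes for PP2A and its regulators, PPP2CA included, 11 were lower and 3 higher, with 6 lower without any one S100A16 KD library, 7 without MagoHB KD 1, 5 without MagoHB KD 3, and 5 higher without MagoHB KD 2 or without both libraries. The other catalytic subunit, PPP2CB, had 70.3, 70.8 and 68.5 CPM in the S100A16 KD, against 65.6, 70.4 and 66.1 CPM in the MagoHB KD (log2 fold change 0.05, adjusted p = 0.539), and the lines overlapped. The scaffold PPP2R1A was at -0.55 and the striatin STRN3 at 1.07.

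A549 cells express genes best known from the liver, and 13 of 30 of these were higher in the S100A16 KD and 4 lower. Their log2 fold changes ran from -1.62 to 4.68, with a median of 0.32. Among the lower genes were CES1, CPS1 and AMBP, at -1.51, -0.38 and -0.25 without MagoHB KD 3. Each of the 3 lost its call without MagoHB KD 3, S100A16 KD 2 or S100A16 KD 3. The higher count was 11 to 15 when single libraries were left out, and the lower count 1 or 2 without MagoHB KD 1, MagoHB KD 3, S100A16 KD 2 or S100A16 KD 3 and 7 without both libraries. The fibrinogen chains FGA and FGB had log2 fold changes of 1.25 and 1.42. FGB had 1603, 1474 and 1578 CPM in the S100A16 KD, against 639.9, 481 and 619.8 CPM in the MagoHB KD (log2 fold change 1.42 ± 0.11 (SE), adjusted p = 2.95e-05). SERPINA1, which encodes alpha-1 antitrypsin, had 95.7, 79.4 and 98.7 CPM in the S100A16 KD, against 30.1, 19 and 34.6 CPM in the MagoHB KD, and the lines did not overlap in either gene. Of 17 imprinted genes 4 were higher and 6 lower. IGF2, the growth factor encoded beside H19, had 1431, 1209 and 1406 CPM in the S100A16 KD, against 415, 518 and 429.7 CPM in the MagoHB KD (log2 fold change 1.57 ± 0.11 (SE), adjusted p = 1.59e-05), while H19 and PEG10 were lower at -2.37 and -1.41; the call of PEG10 did not hold when all genes of at least 1 count were kept (adjusted p = 0.0598). IGF2 was higher and its neighbour H19 lower in the same libraries.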

How the data were processed

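Poly(A) mRNA of A549 cells was sequenced, and the authors deposited whole-number read counts for 44016 features. Deposited RPKM values equalled these counts over exon length and total counts, and are used only to compare levels between genes. The submitters' processing notes name the build GRCh38, StringTie 2.1.4, HISAT2 2.2.1, DESeq2 1.32.0, FastQC 0.11.9 and SAMtools 1.15.1. The counting program, its annotation and its handling of strand were not given in the sources used here. Per-sample columns not used numbered 0.

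Libraries were grouped by their labels. The 6 libraries were fitted in R 4.3.3 with edgeR 4.0.16 (filterByExpr, TMM, robust quasi-likelihood F test, Benjamini-Hochberg over 21033 genes, called under 0.05), after tests on simulated data. Positive fold changes mean higher in the S100A16 KD. Levels are TMM-scaled CPM computed from the deposited counts. Odd values among counts of 1 to 19 made up 20.4% to 21.6% per library, so both mates of a pair were probably counted, and halved counts were an alternative. Totals of 39523692 to 51406431 counts set the precision.

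The comparison and the 49 gene lists (1479 of 1488 entries matched a feature) were chosen with earlier results of these data known. Genes named were the targets and partners, the 15 highest and 15 lowest called genes of at least 5 CPM whose groups did not overlap and that stayed called without S100A16 KD 1 and MagoHB KD 2, and up to 4 called members of a list per direction by adjusted p. Members of a list described as a whole could be named too, and EIF3H and PPP2CB were chosen after their values were seen. Alternatives were DESeq2 1.42.0, limma 3.58.1 with quality weights, other scalings and filters, all 18 libraries, a replicate block and leaving out libraries. Sequences were matched by symbol in RefSeq tables of GRCh38.p14. Some genes of these lists were counted but are not reported here by name.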

Additional observations from a re-analysis of the deposited data

How the results depend on the processing

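With limma voom and quality weights, which gave MagoHB KD 2 a weight of 0.145 against 0.786 to 3.17 for the other libraries, 12688 genes were called and 6115 were lower, against 8382 and 3952 by edgeR; the cause was not tested. The number of called genes was 8216 by total counts alone, 8457 by the DESeq2 Wald test, 8421 with halved counts and 10029 with all 18 libraries fitted together. Leaving out single libraries gave 6165 to 11672 called genes. Same-numbered libraries correlated in their deviations at 0.072, 0.045 and 0.004, and differently numbered ones at -0.062 to 0.023. All these values are small, but with 3 libraries a line they cannot exclude a pairing by replicate number. With the replicate number as a block 8009 genes were called, 7657 of them among the 8382, and of 316 named genes 309 kept their side of the threshold. None of these 316 genes, those of the naming rule, reversed in direction under any alternative run. A reversal was counted only where the gene was called with or without the alternative. Most of the 316 were picked because they were called, so few reversals could arise, and 314 were tested with halved counts. Of 35 other genes in the text, where any change of sign was counted, 6 took the opposite sign under at least 1 alternative, and the call was lost for 5 and gained for 6. Those that changed sign were not called by edgeR with all 6 libraries. With no filter beyond 1 count 20 of the 316 lost their call, UPF1, RRM2 and PEG10 among them. Leaving out 1 S100A16 KD library cost 31 to 37 of the 316 named genes their call. Low counts limit genes near the filter, such as S100A14.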
